A study of Mus musculus with 12 samples.

Results

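A list of 39 nuclear-encoded subunit genes was taken by symbol from the 23230 genes in the expression table. It covers respiratory complexes II, III and IV and ATP synthase (complex V) without tissue-restricted isoforms of complex IV subunits, which are read separately below. Complex II contributed 4 genes, complex III 9, complex IV 11 and ATP synthase 15, and the 4 sets were compared in oocytes with and without the paired maternal factors ZAR1 and ZAR2. The 12 libraries covered growing oocytes, fully grown oocytes with an intact germinal vesicle (GV) and ovulated oocytes collected as metaphase II (MII), each from WT and Zar1/2-null females, with 2 libraries per group and 10 oocytes per library. All mice shared a C57BL6/ICR hybrid background. Growing oocytes came from females of 13.5 days according to the sample labels (the study's methods state a younger age), GV oocytes from females of 21 days, 44 h after PMSG, and ovulated oocytes from females 16 h after hCG. In the null strain, Zar1 carried a short deletion followed by a stop codon and Zar2 (listed as Zar1l) a frameshifting deletion in exon 1, both made with CRISPR/Cas9. The study describes many ovulated null oocytes as held in meiosis I, so in the libraries labelled MII the genotype and the meiotic stage cannot be told apart. In WT oocytes held in meiosis I with nocodazole, the study found by RT-qPCR that selected mRNAs still decayed. It proposes that the delayed decay came from the loss of ZAR1/2 and not from the arrest. That experiment covered selected mRNAs, and the libraries used here include no such control. Separate animals or pools for the replicates are not stated, so p-values measure the spread between these libraries, which may be technical.

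The respiratory chain sits in the inner mitochondrial membrane. Complex II passes electrons from succinate to ubiquinone and is the only complex of the chain built wholly from nuclear genes. Complex III moves electrons from ubiquinol to cytochrome c, complex IV from cytochrome c to oxygen, and ATP synthase uses the resulting proton gradient to make ATP. Oocytes depend on this chain, since they oxidise pyruvate and use little glucose. Transcription stops when the oocyte is fully grown, so from the GV stage onward mRNA levels are set by storage, poly(A) tail length and decay. The libraries were made with oligo-dT primers by Smart-seq2, a full-length cDNA method, so a shorter poly(A) tail and fewer molecules cannot be told apart in these values.

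FPKM, a count of fragments scaled to exon length and library size, had been multiplied by the authors with a factor from ERCC RNAs, synthetic transcripts added in equal amount to each lysate. These factors were 0.697 to 0.836 in WT GV, 0.225 and 0.228 in WT MII, 0.533 and 0.583 in null GV and 0.252 and 0.283 in null MII libraries, relative to 1 in WT growing libraries. The stage comparisons therefore rest on the spike-in far more than the comparison of the genotypes at MII. Zar1l stood at 639 and 644 FPKM in WT growing and 533 and 504 FPKM in WT GV libraries, against 17.5, 13.2, 20.9 and 19.6 FPKM in the null libraries of those stages. Zar1 mRNA stood at 603 and 725 FPKM in WT growing and 407 and 460 FPKM in null growing libraries. At GV it stood at 439 and 423 FPKM in WT and 136 and 203 FPKM in null libraries. At MII it stood at 83.6 and 72.4 FPKM in WT and 190 and 194 FPKM in null libraries. Its allele leaves nearly the whole transcript in place, so its level does not check the genotype. The 12 oocyte markers summed to at least 1400 FPKM in every library, the 13 granulosa and cumulus markers to at most 26.7 FPKM and the 6 immune markers to at most 3.55 FPKM. Over the 39 subunit genes, the median gap between the 2 libraries of a group was 0.104 to 0.320 on the log2 scale.

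The 3′ ends of 7 transcripts are shown here because they include the subunit mRNAs with the largest and the smallest differences between the genotypes at MII, and because the 3′ end is where poly(A) tails are added and removed. Each line gives the last 30 bases of the annotated transcript in mm9, with the polyadenylation hexamer (AATAAA or its variant ATTAAA) in capitals.
Cox7c, chr13:86184421-86184450, minus strand: aaaattgtaAATAAActaatgacataaaga
Uqcr11, chr10:79865742-79865771, minus strand: cagcATTAAAccttattcttatgccttgga
Atp5e, chr2:174286573-174286602, minus strand: gccAATAAAttaacatggttcactttctgc
Cox8a, chr19:7289648-7289677, minus strand: taacAATAAAgtctatttaaaccttgctcc
Sdhd, chr9:50404443-50404472, minus strand: ttaAATAAAatattatataatgaaaataca
Uqcrfs1, chr13:30632177-30632206, minus strand: tttgatATTAAAcctttcacagttatggaa
Atp5g3, chr2:73746504-73746533, minus strand: cagtcatttcATTAAAgatgaaaactttaa
The first 3 mRNAs (Cox7c, Uqcr11 and Atp5e) were over 100-fold higher in null than in WT MII libraries, Cox8a differed by 1.59-fold, and the last 3 did not differ past the threshold. Both hexamer forms occurred on each side of this division. In the cytoplasm of maturing oocytes, a U-rich cytoplasmic polyadenylation element (CPE) close to the hexamer marks mRNAs whose tails are lengthened. A CPE (TTTTAT or TTTTAAT on the transcript strand) lay in the last 100 bases of 1 of the 33 subunit transcripts with a 3′ UTR of at least 100 bases (3.0%), against 20% of 9691 tested genes of that kind. The 1 transcript was that of Cox5a, a nuclear-encoded subunit of complex IV, shown here with its CPE in capitals, 52 bases before the hexamer.
Cox5a, chr9:57380137-57380166, plus strand: tgcctggaaatgTTTTATttgaacaaattt
Cox5a stood at 70.2 and 67.3 FPKM in WT MII and at 216 and 165 FPKM in null MII libraries. Its exons overlap those of Gm17596 on the opposite strand, and unstranded reads cannot separate the genes. A match of these letters is a description of the window and does not show that a protein binds there.

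All 4 complexes were strongly expressed before maturation. In WT GV libraries the median subunit stood at 111 and 96.5 FPKM in complex II, 221 and 202 FPKM in complex III, 431 and 407 FPKM in complex IV and 278 and 259 FPKM in ATP synthase. In the WT MII libraries these medians were 6.30 and 6.85, 3.42 and 3.80, 25.4 and 20.8, and 7.08 and 5.69 FPKM. In the null MII libraries they were 17.0 and 15.0, 105 and 62.0, 252 and 205, and 41.0 and 36.3 FPKM. The null MII medians lay above the WT MII medians for each complex, by the least in complex II. Among the single genes of WT GV oocytes, Atp5e, the small epsilon subunit of the ATP synthase stalk, had 1064 and 990 FPKM. Uqcrc1, a core protein of complex III, had 5.18 and 5.0 FPKM, the lowest of the 39. FPKM values of transcripts this short depend on how the fragment length is modelled, and many subunit genes have processed pseudogenes that compete for 50-base reads, so levels are compared here mainly for a gene with itself.

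**Figure D1:**
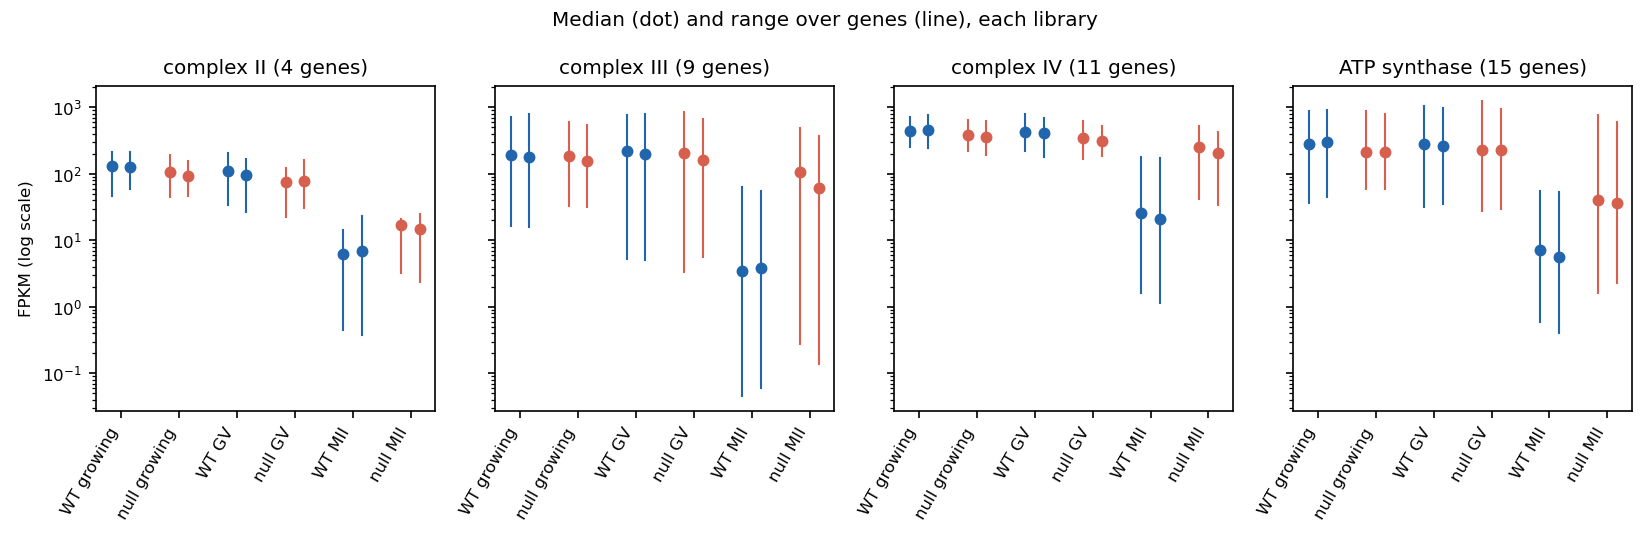
FPKM (log axis) of the subunit genes of each complex in each of the 12 libraries (WT blue, Zar1/2-null red). Dots mark the median over the genes and lines run from the lowest to the highest gene. Within each complex the WT MII medians (3.42 to 25.4 FPKM over the 4 complexes) lie below those of every other group, and the null MII medians of complex IV (252 and 205 FPKM) remain closest to their GV values.

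In growing oocytes, few subunit genes differed between the genotypes. limma with Benjamini-Hochberg adjustment over the 11502 genes tested (log2(FPKM + 1), adjusted p under 0.05) called 2 of the 39 higher in null oocytes, where 10.6% of all tested genes were called, and 1 lower, where 24.4% were called. The median difference was -0.235 on the log2 scale, against -0.159 over all tested genes. Uqcrc1, named here after its values were seen, stood at 16.6 and 15.8 FPKM in WT growing libraries and 47.6 and 57.4 FPKM in null growing libraries. It was higher in both null libraries, with a log2 difference of 1.63 ± 0.186 (SE, limma adjusted p = 0.0001). At the GV stage it stood at 5.18 and 5.0 FPKM in WT and 3.32 and 5.58 FPKM in null libraries, which overlapped. Atp5d, the delta subunit of the stalk and also named after its values were seen, was the other gene called higher (0.55 ± 0.169 SE, limma adjusted p = 0.0261), a call lost when WT growing replicate 1 was left out (0.40) or when either null growing library was. Atp5g2, one of 3 genes for the membrane c-ring subunit, was called lower (-0.50 ± 0.142 SE, limma adjusted p = 0.0193). Its call was lost without any 1 of the 4 growing libraries and without ERCC scaling (-0.21).

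At the GV stage, 0 of the 39 were called higher in null oocytes (2.83% of all tested genes) and 5 were called lower (40.6%), by limma with Benjamini-Hochberg adjustment. In this and the later comparisons, each direction with 0 subunit genes called also had 0 at an unadjusted p under 0.05, except for 1 gene (Atp5g3) lower at MII. Without ERCC scaling the GV split was 1 higher and 2 lower, and with libraries scaled to a common median 4 higher and 0 lower. The number of GV calls therefore depends on the scaling. The median difference was -0.226 (log2) against -0.376 over all tested genes. The 5 genes were Sdhc and Uqcrfs1, which encode a membrane anchor of complex II and the Rieske iron-sulfur protein of complex III, and Atp5a1, Atp5g2 and Atp5g3 of ATP synthase. Uqcrfs1 stood at 58.1 and 46.3 FPKM in WT GV and 20.02 and 32.2 FPKM in null GV libraries. Both null libraries were below both WT libraries (-1.0 ± 0.204 SE on the log2 scale, limma adjusted p = 0.00281). Atp5g3, another c-ring gene, stood at 64.2 and 55.5 FPKM in WT GV and 27.6 and 29.998 FPKM in null GV libraries. It was again lower in both null libraries (-1.03 ± 0.154 SE, limma adjusted p = 0.000478). Both of these calls were kept without ERCC scaling, and under the median scaling neither difference passed the threshold (-0.43 and -0.45). The calls of Sdhc and Atp5a1 were lost without WT GV replicate 1 (-0.54 and -0.45) or null GV replicate 1 (-0.56 and -0.35), and that of Sdhc also without either of the other GV libraries (-0.69 and -0.67). All 11 listed complex IV genes stayed outside both calls at this stage.

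Over growth, from growing to GV, 0 subunit genes rose in WT oocytes (2.77% of all tested genes) and 6 were lower at GV (28.7%), by limma with Benjamini-Hochberg adjustment. These were Sdha, Sdhb, Uqcrc1, Cyc1, Atp5a1 and Atp5b, with log2 differences of -1.50 to -0.57. Without ERCC scaling this split turned to 3 higher and 1 lower, and under the median scaling it was 0 higher and 1 lower. The 6 calls became 1 without WT growing replicate 2 and 1 without WT GV replicate 2. In null oocytes 0 were higher (4.76%) and 11 lower at GV (55.9%), while 16 were called higher and 5 lower on the unscaled values. On the ERCC-scaled values complex IV had no listed gene called in either genotype. The change over growth differed between the genotypes in 2 genes, both with the more negative change in null oocytes (11.3% of all tested genes), and 0 in the other direction (2.58%). Uqcrc1 differed by -1.82 and Atp5g3 by -1.11 on the log2 scale.

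**Figure D2:**
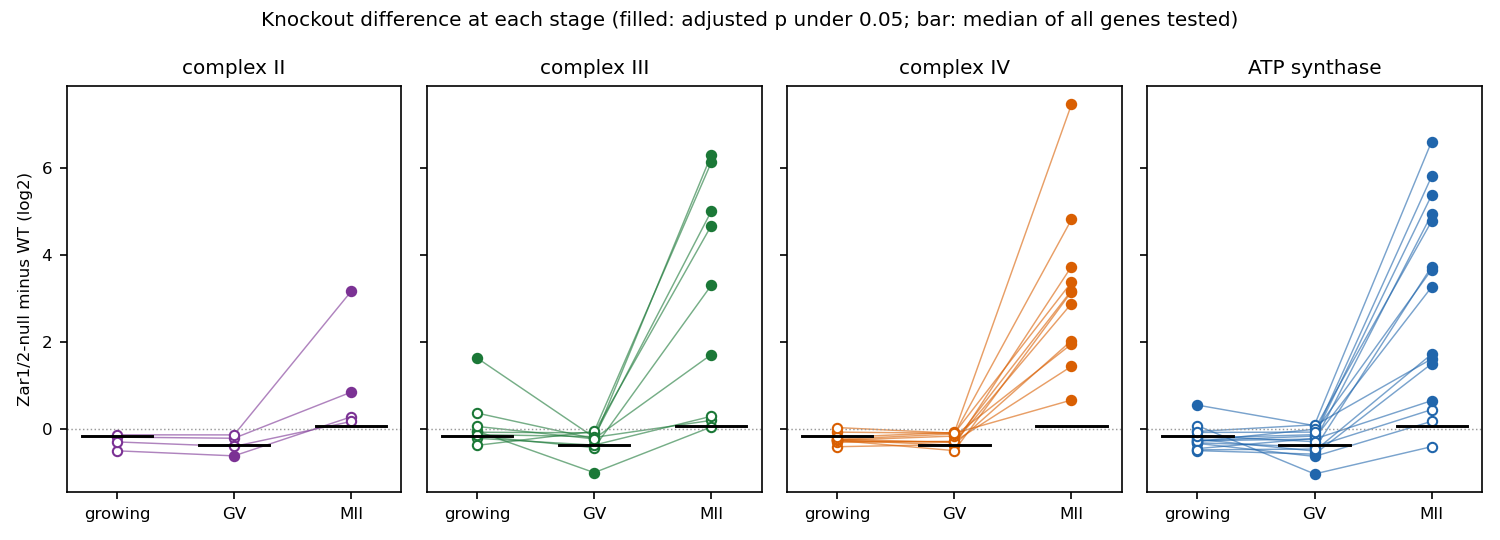
Zar1/2-null minus WT difference on log2(FPKM + 1) at the 3 stages for each subunit gene, by complex. Lines join 1 gene, filled dots passed an adjusted p of 0.05 and black bars mark the median of all genes tested (-0.159, -0.376 and 0.0596). Most genes lie near 0 in growing and GV oocytes and spread up to 7.45 at MII.

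From GV to MII, all 39 subunit genes fell in WT oocytes. By limma with Benjamini-Hochberg adjustment, 39 were lower (93.4% of all tested genes were) and 0 higher (0.104%). The median difference was -4.35 on the log2 scale, against -1.28 over all tested genes, and the medians were -4.25 in complex II, -5.05 in complex III, -3.79 in complex IV and -4.65 in ATP synthase. On the unscaled values 35 were lower and 2 higher, and under the median scaling 33 were lower and 4 higher. Expressed as a share of the GV mean FPKM, a median of 2.67% of the mRNA signal was left at MII, from 0.289% for Cox7c to 50.1% for Cox8a. In 32 of the 39 genes less than 10% was left, and in 9 less than 1%. These shares rest on the spike-in. Without ERCC scaling the median was 9.07%, from 0.978% for Cox7c to 169% for Cox8a, with 20 genes under 10%, 1 (Cox7c) under 1% and 4 (Sdha, Uqcrc2, Cox8a and Atp5b) over 100%.

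In null oocytes the same step left a median of 41.1% of the GV mean, from 1.97% for Sdhd to 99.1% for Cox6a1. Less than 10% was left in 4 genes (Sdhd, Uqcrc1, Uqcrfs1 and Atp5g3) and more than 50% in 17. By complex, the median share left in null oocytes was 21.9% in complex II, 56.6% in complex III, 78.9% in complex IV and 31.5% in ATP synthase, against 7.60%, 1.71%, 7.01% and 2.32% in WT oocytes. Without ERCC scaling the median over the 39 genes was 84.4%, from 4.10% for Sdhd to 206% for Cox6a1, with 2 genes under 10%, 27 over 50% and 17 over 100%. The unscaled medians by complex were then 45.8%, 117%, 163% and 64.5% in null and 25.6%, 5.76%, 23.7% and 7.76% in WT oocytes, in the same order of complexes. In null oocytes 28 genes were lower at MII (68.7% of all tested genes) and 0 higher (0.209%), by limma with Benjamini-Hochberg adjustment. Without ERCC scaling 19 were lower and 14 higher, and under the median scaling 11 were lower and 18 higher. For the genes with a large share left, the direction of the null change therefore depended on the spike-in.

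That difference was tested directly as the change over maturation in null minus that in WT oocytes. By limma with Benjamini-Hochberg adjustment, 36 of the 39 genes had the less negative change in null oocytes (33.9% of all tested genes) and 0 the more negative one (0.643%). The count was 28 on the unscaled values and 28 under the median scaling. All 11 complex IV genes and all 15 ATP synthase genes passed, with 7 of 9 in complex III and 3 of 4 in complex II. The 3 that did not pass were Sdhd, Uqcrc1 and Uqcrc2. At MII, Uqcrc1 was under 1 FPKM in both genotypes, where the pseudocount of 1 FPKM shrinks a difference. Of the 36 genes that passed, 31 were also called higher in null oocytes at MII. The others had these null minus WT differences (log2) at GV and at MII. They were -1.0 and 0.05 for Uqcrfs1, -0.63 and 0.18 for Atp5a1, and -0.615 and 0.28 for Sdhc. For Atp5b they were -0.41 and 0.45, and for Atp5g3 -1.03 and -0.40. Their contrast therefore also holds the lower null level at GV. With 1 library left out the count was 30 (without WT GV replicate 1) to 37 (without null GV replicate 2). The medians were 0.98 in complex II, 3.72 in complex III, 3.46 in complex IV and 3.48 in ATP synthase on the log2 scale, against 0.478 over all tested genes.

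**Figure D3:**
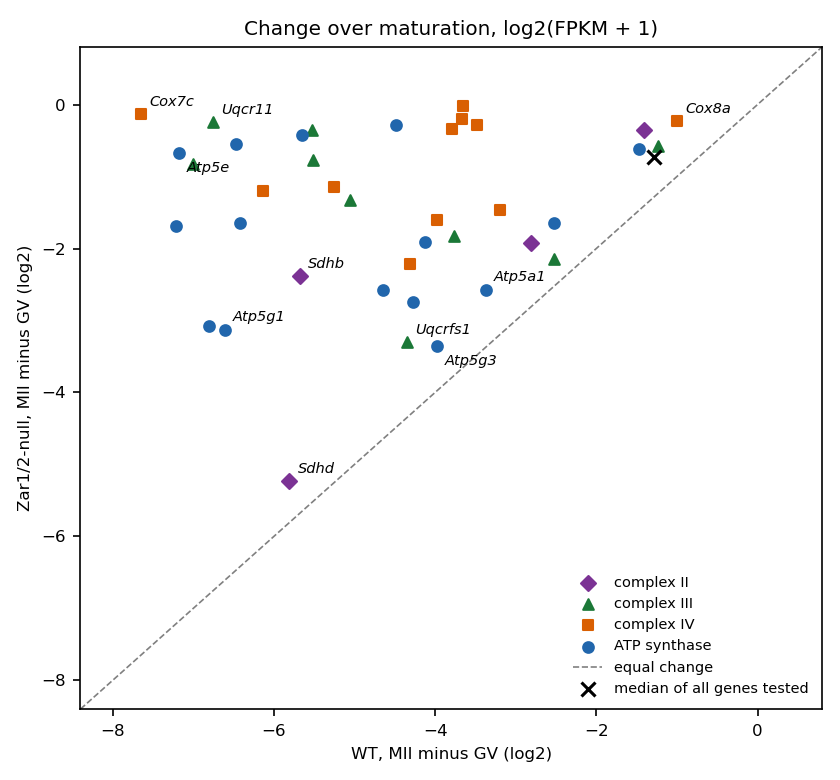
Change from GV to MII in WT (x axis) and Zar1/2-null oocytes (y axis), as the log2(FPKM + 1) difference, for the 39 subunit genes by complex. The dashed line marks equal change and the cross the median of all genes tested (-1.28 and -0.722). Cox7c lies at -7.65 in WT and -0.13 in null oocytes, whereas Sdhd lies near the line at -5.81 and -5.23.

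At MII itself, 31 of the 39 genes were higher in null than in WT libraries (21.5% of all tested genes) and 0 were lower (10.3%), by limma with Benjamini-Hochberg adjustment. The median difference was 3.15 (log2) against 0.0596 over all tested genes. Mean FPKM was more than 10-fold higher in null oocytes in 19 genes and more than 100-fold higher in 4. The number of genes called higher was 30 to 32 under every other setting and with any single library left out. The 12 oocyte markers summed to 1400 and 1580 FPKM in WT MII and to 4440 and 4940 FPKM in null MII libraries, and the 13 granulosa and cumulus markers to 4.21 and 4.34 against 6.04 and 7.24 FPKM, with 12 of the 13 under 1 FPKM in both groups. Their part in the result was not tested. With 10 oocytes pooled, a low level in all oocytes and an absence from some cannot be told apart. The 8 genes not called were Sdhc, Sdhd, Uqcrc1, Uqcrc2, Uqcrfs1, Atp5a1, Atp5b and Atp5g3. Of these, Uqcrc1 stood at 0.045 and 0.060 FPKM in WT MII and 0.280 and 0.140 FPKM in null MII libraries. Both null libraries were higher, and the pseudocount of 1 FPKM shrinks a difference at such levels, so the missing call does not show equal levels.

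**Figure D4:**
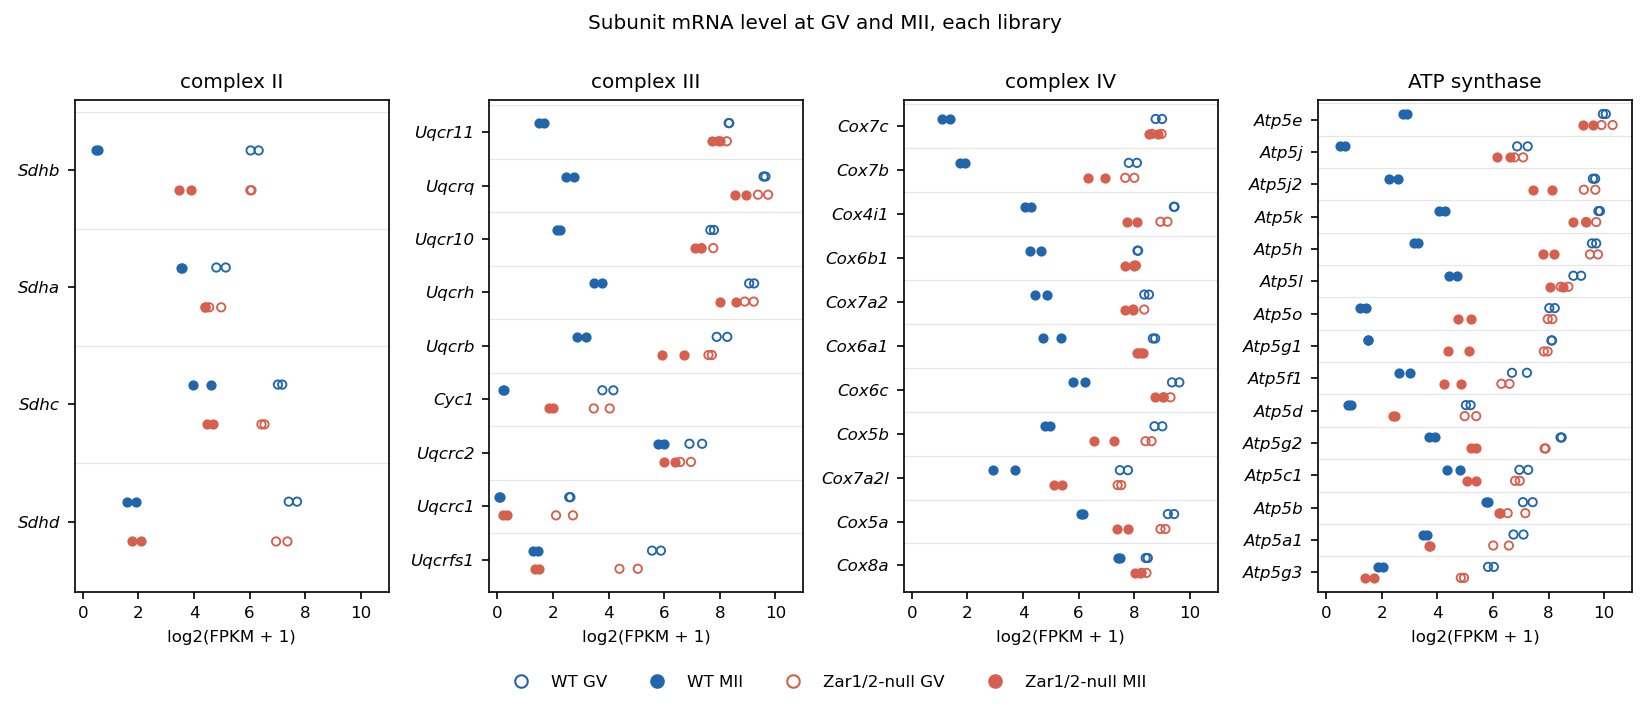
log2(FPKM + 1) of each subunit gene in each GV (open) and MII (filled) library of WT (blue) and Zar1/2-null (red) oocytes, ordered within each complex by the difference between the genotypes at MII. For Cox7c the 2 null MII libraries (460 and 366 FPKM) lie beside the GV libraries, and the 2 WT MII libraries lie at 1.61 and 1.13 FPKM.

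In complex II, 2 of the 4 genes were higher in null MII oocytes. Sdhb encodes the iron-sulfur subunit that hands electrons on to the membrane domain. It stood at 79.1 and 64.5 FPKM in WT GV, 66.0 and 64.1 FPKM in null GV, 0.453 and 0.379 FPKM in WT MII and 13.8 and 9.88 FPKM in null MII libraries. The GV groups overlapped, and at MII both null libraries were far above both WT libraries (3.16 ± 0.179 SE, limma adjusted p = 1.25e-07). Sdha, the flavoprotein that oxidises succinate, stood at 34.3 and 26.9 FPKM in WT GV, 22.3 and 30.5 FPKM in null GV, 10.6 and 10.9 FPKM in WT MII and 20.2 and 20.1 FPKM in null MII libraries. The MII groups were again apart, with a smaller difference (0.85 ± 0.184 SE, limma adjusted p = 0.00416). Sdhc and Sdhd encode the membrane anchors that hold the ubiquinone site. Sdhd stood at 208 and 169 FPKM in WT GV, 123 and 163 FPKM in null GV, 2.00 and 2.76 FPKM in WT MII and 3.22 and 2.40 FPKM in null MII libraries. Both genotypes were low at MII and overlapped (0.17 ± 0.199 SE, limma adjusted p = 0.593). Sdhc also overlapped at MII, with 14.5 and 23.3 FPKM in WT and 20.8 and 24.5 FPKM in null libraries (0.28 ± 0.198 SE, limma adjusted p = 0.337), a difference that passed the threshold without WT MII replicate 2 (0.60). Both anchors took the opposite sign under the median scaling.

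In complex III, the 6 genes called higher were 5 small structural or hinge subunits (Uqcr11, Uqcrq, Uqcr10, Uqcrh and Uqcrb) and Cyc1. Uqcr11 stood at 324 and 320 FPKM in WT GV, 305 and 248 FPKM in null GV, 1.79 and 2.17 FPKM in WT MII and 256 and 210 FPKM in null MII libraries. The null MII libraries were close to the GV range and the WT MII libraries far below it (6.29 ± 0.163 SE, limma adjusted p = 9.75e-10), and this 118-fold ratio was computed on mean FPKM. Uqcrq stood at 764 and 801 FPKM in WT GV, 855 and 665 FPKM in null GV, 4.60 and 5.70 FPKM in WT MII and 487 and 372 FPKM in null MII libraries. It had the same order (6.12 ± 0.186 SE, limma adjusted p = 1.26e-09). Cyc1, which carries the heme of cytochrome c1, stood at 0.155 and 0.175 FPKM in WT MII and 3.01 and 2.62 FPKM in null MII libraries, after 17.0 and 12.7 FPKM in WT GV and 10.1 and 15.5 FPKM in null GV libraries. Its MII groups were apart (1.71 ± 0.195 SE, limma adjusted p = 4.14e-05), and the pseudocount of 1 FPKM shrinks a difference at such levels. Uqcrfs1 stood at 1.42 and 1.77 FPKM in WT MII and 1.84 and 1.53 FPKM in null MII libraries. These overlapped (0.05 ± 0.204 SE, limma adjusted p = 0.917), and the sign turned without ERCC scaling (-0.14).

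In complex IV, all 11 listed genes were higher in null MII oocytes. Cox7c, a small membrane subunit, stood at 512 and 437 FPKM in WT GV, 506 and 398 FPKM in null GV, 1.61 and 1.13 FPKM in WT MII and 460 and 366 FPKM in null MII libraries. The GV groups and the null MII libraries overlapped, and only the WT MII libraries were low. The ratio of the MII means was 301-fold (7.45 ± 0.191 SE on the log2 scale, limma adjusted p = 9.75e-10). Cox7b, another small membrane subunit, stood at 273 and 223 FPKM in WT GV, 256 and 204 FPKM in null GV, 2.75 and 2.35 FPKM in WT MII and 122 and 79.3 FPKM in null MII libraries. Its null MII libraries were between the GV and the WT MII levels (4.81 ± 0.227 SE, limma adjusted p = 2.65e-08). Cox4i1, the ubiquitous isoform of a subunit that binds regulatory nucleotides, stood at 700 and 689 FPKM in WT GV, 586 and 491 FPKM in null GV, 15.9 and 18.7 FPKM in WT MII and 272 and 214 FPKM in null MII libraries (3.73 ± 0.167 SE, limma adjusted p = 1.9e-08). Cox8a, the ubiquitous isoform of another small membrane subunit, had the smallest difference of the complex. It stood at 359 and 340 FPKM in WT GV, 347 and 308 FPKM in null GV, 178 and 172 FPKM in WT MII and 295 and 263 FPKM in null MII libraries. Both genotypes kept a high level, with the null libraries above (0.67 ± 0.144 SE, limma adjusted p = 0.00399), a call lost under the median scaling (0.30).

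In ATP synthase, 12 of the 15 genes were higher in null MII oocytes, and the 3 not called included both subunits that form the catalytic hexamer. Atp5e stood at 1064 and 990 FPKM in WT GV, 1261 and 956 FPKM in null GV, 6.46 and 5.69 FPKM in WT MII and 782 and 601 FPKM in null MII libraries. The WT MII libraries were the low group (6.60 ± 0.183 SE, limma adjusted p = 9.82e-10; a 114-fold ratio of means). Atp5j, coupling factor 6 of the stator, stood at 151 and 116 FPKM in WT GV, 135 and 108 FPKM in null GV, 0.593 and 0.407 FPKM in WT MII and 97.5 and 69.3 FPKM in null MII libraries. It followed the same order (5.80 ± 0.207 SE, limma adjusted p = 3.61e-09), and the exons of Atp5j overlap those of Gabpa on the opposite strand, which this unstranded method cannot separate. Exons of Uqcrb, Uqcrc2, Cox5a, Atp5f1 and Atp5o also overlap those of a gene on the opposite strand, and those of Atp5o also overlap Donson on the same strand. Atp5b, the catalytic beta subunit, stood at 171 and 134 FPKM in WT GV, 91.1 and 142 FPKM in null GV, 54.7 and 53.1 FPKM in WT MII and 74.7 and 72.8 FPKM in null MII libraries. Both null MII libraries were above both WT ones, and the difference did not pass the threshold (0.45 ± 0.208 SE, limma adjusted p = 0.133). It passed when the MII libraries were fitted alone, where the SE was smaller (0.45 ± 0.108 SE, limma adjusted p = 0.0367), and missed the threshold under every other setting, with adjusted p of 0.0535 to 0.737. Atp5a1, the alpha subunit, stood at 136 and 106 FPKM in WT GV, 63.3 and 93.9 FPKM in null GV, 10.1 and 11.2 FPKM in WT MII and 12.3 and 12.1 FPKM in null MII libraries. The MII groups were close to each other (0.18 ± 0.200 SE, limma adjusted p = 0.587), and the sign turned without ERCC scaling (-0.05).

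The 3 genes of the c-ring encode near-identical mature proteins behind different import sequences, and their mRNAs had different values at MII. Atp5g1 stood at 278 and 273 FPKM in WT GV, 249 and 226 FPKM in null GV, 1.84 and 1.82 FPKM in WT MII and 34.2 and 19.9 FPKM in null MII libraries. Atp5g2 stood at 353 and 344 FPKM in WT GV, 230 and 236 FPKM in null GV, 12.1 and 13.9 FPKM in WT MII and 41.0 and 36.3 FPKM in null MII libraries. Both were higher in the null MII libraries without overlap, by 3.26 ± 0.207 and 1.5 ± 0.142 (SE, limma adjusted p = 3.11e-07 and 8.48e-06). Atp5g3 stood at 3.09 and 2.63 FPKM in WT MII and 1.61 and 2.25 FPKM in null MII libraries. Here the null libraries were the lower ones, a difference that missed the threshold (-0.40 ± 0.154 SE, limma adjusted p = 0.069) and passed it without ERCC scaling (-0.74), under the median scaling (-0.90), with a pseudocount of 0.1 FPKM (-0.56), in the fit on genes averaging 5 FPKM or more (-0.40) and without null MII replicate 2 (-0.56). The differences between the 3 genes were not tested, and reads in their similar coding parts may be lost to unique mapping.

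The subunit genes with short coding sequences had the largest differences. This split was made after the values were seen. In the 13 genes with 159 to 270 coding bases, the median difference between the genotypes at MII was 4.93 on the log2 scale and 13 were called higher. In the 13 genes with 312 to 507 coding bases the median was 2.03 and 11 were higher, and in the 13 with 510 to 1995 coding bases it was 0.652 and 7 were higher. Among all tested genes in the same ranges, the medians were 0.831, 0.433 and 0.0781, and 58.0%, 45.1% and 22.9% were called higher. Spearman's rho between coding length and the difference was -0.711 over the 39 genes and -0.256 over 10666 tested genes, values across genes, which are not independent replicates. Short subunit genes also had the higher levels: rho was -0.668 between coding length and mean FPKM in WT GV, and 0.635 between that mean and the difference at MII. The pseudocount of 1 FPKM also shrinks the differences of genes with low FPKM. Uqcrc1, with 1443 coding bases, had a difference of 0.199 and a 4.0-fold ratio of mean FPKM at MII. The other long genes had ratios of 1.87 (Sdha), 1.14 (Atp5a1), 1.37 (Atp5b) and 1.24 (Uqcrc2). The parts of length, level and pseudocount in the difference were not tested. Cox8a, with 210 coding bases and a difference of 0.67, and Sdhb, with 849 coding bases and 3.16, stand away from the trend.

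**Figure D5:**
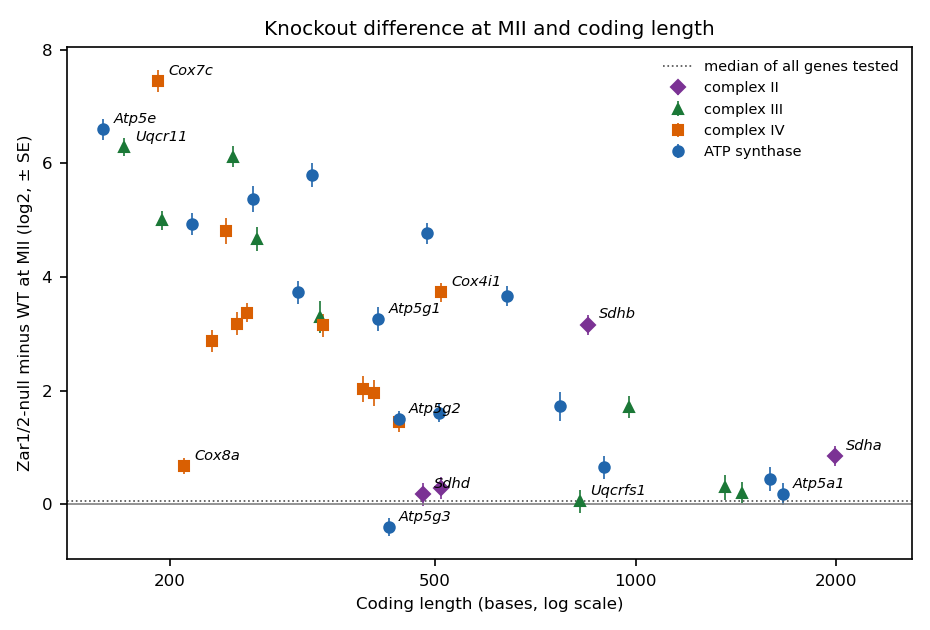
Zar1/2-null minus WT difference at MII on log2(FPKM + 1) (± SE from limma) against coding length in bases (log axis) for the 39 subunit genes, by complex. The dotted line is the median of all genes tested (0.0596). The shortest genes reach 7.45, the 5 longest stay between 0.18 and 0.85, and Cox8a (0.67) is the low short gene. The pseudocount of 1 FPKM shrinks the differences of genes with low FPKM, such as Uqcrc1.

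Promoter sequence was available from RefSeq (GRCm38.p6, 250 bases before to 50 after the annotated start) for 30 of the 39 genes. The genes of the respiratory chain are textbook targets of nuclear respiratory factors, so motifs of the NRF1 and ETS (NRF2/GABP) families were searched on both strands, with the YY1 motif beside them. The NRF1 motif (GCGCA, then any 1 base, then GCGC) was in 9 of the 30 promoters (30%), against 11% of 8147 promoters of tested genes. The ETS motif (CCGGAAG) was in 11 (36.7%), against 18.6%, and the YY1 motif (ATGGCGG) in 1 (3.33%), against 8.41%. A stretch of each of 2 promoters, ending at the base before the start, is shown because they hold several NRF1 matches, with NRF1 and ETS matches in capitals.
Sdha, GRCm38.p6 chr13:74350241-74350360, minus strand: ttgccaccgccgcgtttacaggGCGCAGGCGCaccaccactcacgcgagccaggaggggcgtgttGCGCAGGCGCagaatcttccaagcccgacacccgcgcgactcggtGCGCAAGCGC
Cox6a1, GRCm38.p6 chr5:115348959-115349128, minus strand: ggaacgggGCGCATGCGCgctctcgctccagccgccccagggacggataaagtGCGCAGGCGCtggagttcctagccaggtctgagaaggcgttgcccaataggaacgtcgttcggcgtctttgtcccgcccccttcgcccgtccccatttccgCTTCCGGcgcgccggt
At MII, Sdha stood at 10.6 and 10.9 FPKM in WT and 20.2 and 20.1 FPKM in null libraries. Cox6a1, a regulatory subunit of complex IV, stood at 25.4 and 40.6 FPKM in WT MII and 317 and 272 FPKM in null MII libraries, which do not overlap (3.15 ± 0.198 SE, limma adjusted p = 2.9e-07). The matches describe the windows, and nothing on the binding of a factor follows from them.

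Genes that act beside these subunits were read from lists, by the same fit at MII. Of 36 complex I subunits tested, 34 were higher in null MII oocytes and 0 lower, with a median of 3.18 on the log2 scale, close to complexes III to V. Over all tested genes 21.5% were called higher and 10.3% lower, with a median of 0.0596, and the counts of the lists that follow stand beside the same shares. Ndufa7, an accessory subunit, had the largest difference (0.866 and 0.685 FPKM in WT, 148 and 126 FPKM in null), and Ndufs1, which carries iron-sulfur clusters of the electron path, the lowest (0.784 and 0.625 against 0.734 and 0.544 FPKM). Of 20 tested assembly factors of complexes II to V, 8 were higher and 0 lower, with a median of 0.32 (log2). Cox17, the copper chaperone for complex IV, stood at 3.68 and 2.31 FPKM in WT MII and 292 and 208 FPKM in null MII libraries. Ttc19, a complex III factor, stood at 0.473 and 0.622 against 0.150 and 0.183 FPKM and did not pass the threshold (-0.41 ± 0.143 SE, limma adjusted p = 0.0508).

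Of 9 tested genes for cytochrome c and mitochondrial transcription factors, 1 was higher and 1 lower, with a median of 0.02 (log2), against 21.5% and 10.3% of all tested genes. Cycs, the electron carrier between complexes III and IV, stood at 8.80 and 6.74 FPKM in WT MII and 33.1 and 20.6 FPKM in null MII libraries (1.64 ± 0.227 SE, limma adjusted p = 0.000185). Tfb2m, a mitochondrial transcription initiation factor, stood at 7.08 and 7.06 against 4.36 and 5.09 FPKM (-0.50 ± 0.165 SE, limma adjusted p = 0.0393). Of 76 tested mitochondrial ribosomal protein genes, 39 were higher and 4 lower, with a median of 0.63 (log2), against 21.5% and 10.3% of all tested genes. Mrpl33 had the largest difference (0.251 and 0.331 against 124 and 87.9 FPKM) and Mrpl9 the lowest (15.4 and 10.9 against 6.14 and 4.72 FPKM).

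Among 7 tissue-restricted isoforms of complex IV subunits, 5 passed the filter and 4 of them were higher in null MII oocytes, where 21.5% of all tested genes were. Of the 4, Cox4i2 stood at 0.084 and 0.033 FPKM in WT MII and 2.38 and 2.75 FPKM in null MII libraries. Cox7a1 stood at 0 and 0.32 against 2.51 and 1.13 FPKM, and Cox8c at 0 and 0.191 against 4.49 and 2.64 FPKM. These levels are near the floor. Cox6b2, known as the testis isoform of Cox6b1, was the most abundant, at 251 and 214 FPKM in WT GV, 237 and 199 FPKM in null GV, 168 and 168 FPKM in WT MII and 182 and 157 FPKM in null MII libraries. Its MII groups overlapped (0.01 ± 0.155 SE, limma adjusted p = 0.989), whereas Cox6b1 stood at 24.1 and 18.2 FPKM in WT MII and 252 and 205 FPKM in null MII libraries. The 2 isoforms thus had similar levels at GV and different ones in WT MII oocytes, where Cox6b2 was the higher, and this difference between genes was not tested. Cox6a2, the heart and muscle isoform, stood at 0.962 and 0.495 FPKM in WT MII and 10.0 and 8.18 FPKM in null MII libraries (2.55 ± 0.230 SE, limma adjusted p = 5.71e-06). Cox8b was listed at 0 in all 12 libraries.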

How the data were processed

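RNA from 10 oocytes per library was reverse transcribed with oligo-dT primers by Smart-seq2 and sequenced. Per the labels and the study's methods, the authors trimmed reads to 50 bases, mapped them to mm9 with TopHat2 2.1.1, kept uniquely mapped reads, quantified UCSC gene models with Cufflinks 2.2.1 as FPKM and multiplied each library by an ERCC factor before the values were deposited. The factors were recovered from the digits of the deposited values (100% of values over 1 FPKM returned to 6 significant digits). Total reads per library are listed in the study's supplement and were not used here, so no counting interval is given. All 39 genes had a value in every library, and 0 of 468 values were 0.

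limma 3.58.1 (R 4.3.3, empirical Bayes with an intensity trend) was fitted on log2(FPKM + 1) over all 12 libraries with 1 term per group, for 11502 genes (those reaching 1 FPKM in any library). Differences on this scale understate changes of low genes. Benjamini-Hochberg adjustment ran over all genes tested. With 2 against 2 libraries an exact permutation test cannot go below p = 0.333, so none is given. On simulated data for the MII comparison (11502 genes), 100% of 100 genes changed 6-fold and 70% of 100 changed 2-fold were recovered, with 6 unchanged genes called. The changed genes were drawn only from well-expressed ones, with the same base level in all groups. These rates therefore do not cover the low levels of many subunit genes in WT MII libraries. Lengths and 3′ ends came from GENCODE M1 on NCBIM37 (mm9), using 1 transcript per gene.

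Same-numbered replicates were not taken as pairs, although their ERCC factors appear to share a WT growing reference. Alternatives were other pseudocounts, filters and scalings, a replicate block, fits on the compared libraries only, no trend, and each library left out. The 39 members, the gene lists and the rule for named genes were chosen with earlier results of these data known. The rule named, per complex, the genes with the largest and smallest difference at MII, the lowest at GV and in growing oocytes, the catalytic or redox subunits, the c-ring genes, and 2 genes of each other list.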

Additional observations from a re-analysis of the deposited data

Results flagged for a closer look

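For 18 of the 19 named subunit genes, the change from GV to MII differed between the genotypes by limma's test of the difference itself, always with the less negative change in Zar1/2-null oocytes, as in 33.9% of all tested genes. Part of the 19 were named for the largest or smallest difference at MII, which enters this same contrast, so the count describes them and supports nothing further. In the following, each value is the null change minus the WT change on the log2 scale. Such a value also holds a lower null level at GV, as for Uqcrfs1 and Atp5g3. In complex II it was 1.06 for Sdha, 3.30 for Sdhb and 0.895 for Sdhc. In complex III it was 1.05 for Uqcrfs1, 6.18 for Uqcrq, 6.52 for Uqcr11 and 1.93 for Cyc1. In complex IV it was 4.10 for Cox4i1, 4.92 for Cox7b, 7.52 for Cox7c and 0.763 for Cox8a. In ATP synthase it was 0.805 for Atp5a1, 0.853 for Atp5b, 6.51 for Atp5e, 3.48 for Atp5g1, 2.08 for Atp5g2, 0.623 for Atp5g3 and 5.93 for Atp5j. The 7 values from 0.623 to 1.06 (Sdha, Sdhc, Uqcrfs1, Cox8a, Atp5a1, Atp5b and Atp5g3) did not pass the threshold without ERCC scaling, and those of all but Sdha also lost it with at least 1 single library left out. The change from growing to GV differed in the other direction for Uqcrc1 (-1.82) and Atp5g3 (-1.11), the second not past the threshold under the median scaling (-0.71). No group had enough libraries for a test of single libraries that stand apart.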

How the results depend on the processing

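The read totals in the study's supplement were not used, and 2 libraries per group limit small differences. The genes called higher at MII numbered 31, and 30 to 32 under each alternative. At MII, 1 gene was called lower with a pseudocount of 0.1 FPKM, with a mean of at least 5 FPKM, without ERCC scaling and under the median scaling.

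Without ERCC scaling, counts became 0 lower in growing, 1 higher and 2 lower at GV, 3 higher and 1 lower over WT growth, 16 higher and 5 lower over null growth, 2 higher over WT maturation and 14 higher over null maturation. Under the median scaling they became 0 lower in growing, 4 higher and 0 lower at GV, 1 lower over WT growth, 21 higher and 3 lower over null growth, 4 higher over WT maturation, 18 higher and 11 lower over null maturation, and 1 lower for the growth difference. On the compared libraries only, 3 were lower in growing and 2 at GV. The cause of these changes beyond the scaling itself was not tested.

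Same-numbered replicates did not deviate together in every pair of groups (r of -0.11 to 0.194 over 5966 genes). The replicate block gave 2 lower in growing and 1 higher over null growth, and changed no other count of members by over 1.5 times.

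With 1 library left out, members ranged from 1 to 2 higher and 0 to 2 lower in growing, 3 to 6 lower at GV, 0 to 1 lower at MII, 1 to 6 lower over WT growth, 0 to 2 higher and 7 to 11 lower over null growth, and 2 to 4 lower for the growth difference. The GV count was 3 without WT GV replicate 1 or null GV replicate 1, and the WT growth count was 3 without WT growing replicate 1. The null growth count was 7 without null growing replicate 1, and the growth difference 4 without null GV replicate 2. The lone library left in a group was then assumed to vary like the others.

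Over all 39 genes, the direction turned without ERCC scaling in 23 in growing oocytes, 29 at GV, 2 at MII, 20 over WT growth, 16 over null growth, 4 over WT maturation, 17 over null maturation, 3 for the maturation difference and 15 for the growth difference. Under the median scaling it turned in 9, 33, 5, 20, 21, 5, 25, 8 and 20, in the same order. Beyond the named genes, Uqcrc2 turned over WT maturation and for the maturation difference without ERCC scaling. Over null maturation, those were Uqcrc2, Uqcrh, Uqcr10, Cox6a1, Cox6b1, Cox6c, Cox7a2, Atp5k and Atp5l. In the other comparisons, genes beyond the named ones numbered 15 in growing oocytes, 16 at GV and 0 at MII. Over WT growth there were 8, over null growth 9 and for the growth difference 7.

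Without ERCC scaling, 8 of the 19 named genes turned in growing oocytes, 13 at GV, 12 over WT growth and 7 over null growth. Under the median scaling these counts were 3, 14, 12 and 9. Single values follow for the named genes at MII, over maturation and for the maturation difference. In growing oocytes, at GV and for the growth difference they cover only the genes called there. At MII, without ERCC scaling, Uqcrfs1 was -0.14 and Atp5a1 -0.046, and under the median scaling Sdhc was -0.072, Sdhd -0.12, Uqcrfs1 -0.27 and Atp5a1 -0.17. Leaving out single libraries gave -0.043 to 0.60 for Sdhc, -0.047 to 0.15 for Uqcrfs1 and, over null maturation, -0.30 to 0.045 for Cox7c. Over WT maturation, without ERCC scaling and under the median scaling, the values were 0.26 and 1.19 for Sdha, 0.76 and 1.70 for Cox8a, and 0.27 and 1.21 for Atp5b. Over null maturation they were 0.68 and 1.35 for Sdha, 0.24 and 0.92 for Uqcrq, 0.81 and 1.49 for Uqcr11, 0.93 and 1.61 for Cox7c, 0.83 and 1.51 for Cox8a, 0.43 and 1.11 for Atp5b, 0.38 and 1.06 for Atp5e, and 0.51 and 1.18 for Atp5j. Cox4i1 (0.59) and Cox7b (0.53) turned under the median scaling. For the maturation difference, Sdhd (-0.049) and Atp5g3 (-0.15) turned without ERCC scaling, and Sdhc (-0.045), Sdhd (-0.31), Cox8a (-0.20), Atp5a1 (-0.13), Atp5b (-0.10) and Atp5g3 (-0.44) under the median scaling. Atp5g2 at GV was 0.015 under the median scaling.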
